A study of Mus musculus with 16 samples.

Results

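The 10 genes described here, Slc2a1, Hk1, Hk2, Hk3, Pfkl, Pfkfb3, Aldoa, Gapdh, Pgk1 and Ldha, encode a glucose transporter, enzymes of glycolysis and the enzyme that makes lactate. They were chosen by name from a deposited table of raw read counts that lists 37310 gene identifiers, and each name matched 1 row. The counts come from F4/80+ adipose tissue macrophages (ATMs) of the epididymal fat (EpiWAT) of male mice on a high-fat diet (HFD), 16 libraries in all. In each of 4 groups there were 4 libraries: wild-type (WT) or IRF5-KO mice fed HFD for 4 weeks (short term, ST-HFD) or for 12 weeks (long term, LT-HFD). The IRF5-KO mice carried Irf5 flox/flox alleles and Cre recombinase driven from the Lyz2 locus (LysM-Cre), which acts in myeloid cells, so that cells of other lineages keep Irf5. The WT mice were littermates, and whether they carried the flox alleles or Cre is not given in the sources used here. All mice were young adults at the start of the diet. No group on normal chow is among these libraries, and since the labels number the replicates without naming animals, p-values measure the spread between these libraries.

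Glucose enters macrophages mainly through GLUT1, the product of Slc2a1, and is trapped in the cell by hexokinases, which add a phosphate. Phosphofructokinase then commits the sugar to glycolysis under the control of fructose 2,6-bisphosphate, and the lower enzymes turn it into pyruvate, which lactate dehydrogenase reduces to lactate. Macrophages activated by microbial products are known to raise glucose uptake and glycolysis, and ATMs of obese fat are known for a raised use of both glycolysis and mitochondrial respiration.

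The libraries held between 3279332 and 4958131 counts, and the 10 genes together took 0.0926% to 0.137% of them. The 3 features with the most counts, a microRNA locus and both mitochondrial ribosomal RNAs, took 18.6% to 24.1% on ST-HFD, and in the LT-HFD libraries 26.1% to 34.5%. Irf5 was at 238 ± 23.2 CPM (TMM-scaled counts per 1000000 counts, SD, n = 4) in WT and 262 ± 11.5 CPM in libraries labelled IRF5-KO on ST-HFD, and at 193 ± 20.1 and 229 ± 26.5 CPM on LT-HFD, so the targeted gene had no lower total where the label reads IRF5-KO. A total per gene does not separate the deleted exons from the rest. Lyz2, the gene that holds the Cre insertion, was at 3429 ± 288 against 1757 ± 251 CPM on ST-HFD and at 3673 ± 483 against 1789 ± 182 CPM on LT-HFD. All 10 macrophage markers checked were detected, and genotypes and durations are given as the libraries are labelled. A scatter plot of Irf5 in the WT libraries by the authors, read by eye, draws the durations the other way round from the labels, so every direction between durations below holds as the libraries are labelled.

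Markers of fibroblasts and preadipocytes moved with diet duration. The summed level of 7 such genes ranged from 985 to 1139 CPM in WT and from 671 to 1633 CPM in IRF5-KO libraries on ST-HFD, and from 3126 to 9135 and from 3248 to 7487 CPM on LT-HFD. All 7 rose in both genotypes, with a median log2 fold change of 3.04 in WT and 2.83 in IRF5-KO. The summed level of 6 proliferation markers ranged from 323 to 689 CPM in WT and from 299 to 538 CPM in IRF5-KO on ST-HFD, and from 102 to 204 and from 129 to 233 CPM on LT-HFD. Mki67 fell in both genotypes (log2 fold changes −2.51, SE 0.27, and −2.36, SE 0.27) and Top2a in WT (−1.26, SE 0.29), and the other proliferation markers were not called. The median log2 fold change of these 6 was −0.54 in WT, with 0 of 6 above 0. In IRF5-KO it was 0.11, with 4 of 6 above 0. The summed level of the 10 macrophage markers ranged from 9058 to 10030 CPM in WT and from 8425 to 9768 CPM in IRF5-KO on ST-HFD, and from 7324 to 9065 and from 6636 to 7244 CPM on LT-HFD. Of these 10, 2 were called as lower with duration in WT and none as higher, and 5 as lower and 2 as higher in IRF5-KO, with a median log2 fold change of −0.17 and −0.37. The summed level of 8 adipocyte markers ranged from 665 to 2293 CPM in WT and from 906 to 2852 CPM in IRF5-KO on ST-HFD, and from 728 to 1973 and from 1192 to 2595 CPM on LT-HFD. Lpl made up most of this sum, with group means of 1135 to 1603 CPM. Fabp4 was next at 89.4 to 233 CPM, and the group means of the others, Adipoq and Plin1 among them, stayed at or under 11.4 CPM. Of the 6 that passed the filter on low counts, none was called with duration in WT, and in IRF5-KO Fabp4 was called as higher (log2 fold change 1.35) and Cidec as lower (−1.05). The summed neutrophil markers stayed at or under 2.71 CPM and the erythroid markers at or under 6.93 CPM in the 16 libraries, and Ly6g and Camp had no count in any. Each result on diet duration below stands beside these shifts in marker levels, whose part in it was not tested. In sorted cells measured in bulk, fewer cells of a type and less RNA per cell cannot be told apart.

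Promoter sequences are shown for 4 of the genes because the data below set them against each other: Hk1 and Hk2 moved in opposite directions with diet duration in WT, and Pgk1 and Ldha varied together between libraries. Each window is the 250 bases before a transcription start in RefSeq (GRCm38.p6), overlaps no annotated exon and runs 5′ to 3′ on the strand of the gene. The capitals mark ACGTG or GCGTG on either strand (read as CACGT or CACGC where the motif is on the other strand), the core letters that hypoxia-inducible factors recognise, and CACGTG holds ACGTG on both strands. Hk1 is shown at chr10:62379909-62380158, minus strand, Hk2 at chr6:82774455-82774704, minus strand, Pgk1 at chrX:106186850-106187099, plus strand, and Ldha at chr7:46845554-46845803, plus strand, inside the annotated span of Ldha and between its exons.
Hk1: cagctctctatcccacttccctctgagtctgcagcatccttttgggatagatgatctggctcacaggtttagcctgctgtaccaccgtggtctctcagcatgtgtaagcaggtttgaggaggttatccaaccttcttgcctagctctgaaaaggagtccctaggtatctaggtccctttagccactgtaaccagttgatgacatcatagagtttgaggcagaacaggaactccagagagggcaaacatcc
Hk2: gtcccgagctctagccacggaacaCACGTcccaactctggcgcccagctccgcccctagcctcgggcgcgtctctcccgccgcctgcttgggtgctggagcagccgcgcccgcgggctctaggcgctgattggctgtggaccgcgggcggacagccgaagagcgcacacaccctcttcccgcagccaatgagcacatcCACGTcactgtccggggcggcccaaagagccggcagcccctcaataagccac
Pgk1: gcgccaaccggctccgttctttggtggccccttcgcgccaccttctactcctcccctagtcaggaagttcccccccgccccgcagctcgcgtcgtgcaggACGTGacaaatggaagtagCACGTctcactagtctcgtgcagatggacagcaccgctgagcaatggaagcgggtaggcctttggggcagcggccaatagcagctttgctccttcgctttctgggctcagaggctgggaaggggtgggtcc
Ldha: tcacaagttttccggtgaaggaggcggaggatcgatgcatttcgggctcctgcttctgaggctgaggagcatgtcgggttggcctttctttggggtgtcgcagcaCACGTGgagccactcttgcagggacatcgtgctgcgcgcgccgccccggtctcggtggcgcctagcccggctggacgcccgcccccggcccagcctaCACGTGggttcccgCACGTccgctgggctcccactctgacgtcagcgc
The Hk1 window holds no match, those of Hk2 and Pgk1 hold 2 matches of ACGTG each, and that of Ldha holds 5, which include 2 CACGTG. These counts depend on the window: the other window of Hk1, which overlaps an exon, holds 3 matches of GCGTG, and the other window of Ldha, which overlaps no exon, holds 1. The bases that follow the Ldha window shown were not found as 1 run in a GENCODE transcript of Ldha, while those that follow its other window were. Among 32851 windows of this length in the reference, 16.6% hold ACGTG, 28.2% hold GCGTG, 38.6% hold either and 6.02% hold CACGTG. Of the 15 windows of the 10 genes, 13 hold either motif, and each gene has at least 1 such window. The windows of a gene are not independent: 2 of the 3 windows of Aldoa overlap and share the 1 match that each holds. A match of 5 letters describes the sequence and is not a site.

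Levels of different genes are given per kb of exon, with all annotated exons of a gene joined, which can exceed the length of the transcripts expressed. By this measure the genes ranged over more than an order of magnitude. Their order depends on these lengths: Gapdh had a higher mean CPM than Aldoa (283 against 275) but 4.13 against 2.91 kb of exon. Aldoa was the highest at 94.6 ± 15.3 CPM per kb (SD, n = 16), followed by Gapdh at 68.5 ± 9.15 and Ldha at 62.3 ± 14.3. Hk3 at 28.02 ± 5.28 and Pgk1 at 25.4 ± 4.71 CPM per kb came next, then Pfkfb3 at 14.0 ± 3.36, Hk2 at 7.96 ± 1.96, Hk1 at 7.28 ± 1.91, Pfkl at 4.50 ± 0.882 and Slc2a1 at 4.49 ± 1.32. Slc2a1 and Pfkl were thus lowest per kb of the 10, and Aldoa, Gapdh and Ldha highest. Pfkl is 1 of 3 phosphofructokinase genes, and its level does not give that of the step. Neighbours in this order whose mean ± SD overlapped were Gapdh and Ldha, Hk3 and Pgk1, Hk2 and Hk1, Hk1 and Pfkl, and Pfkl and Slc2a1. Per kb, Aldoa was above Gapdh, Ldha above Hk3, Pgk1 above Pfkfb3 and Pfkfb3 above Hk2 in 16 of 16 libraries.

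**Figure D1:**
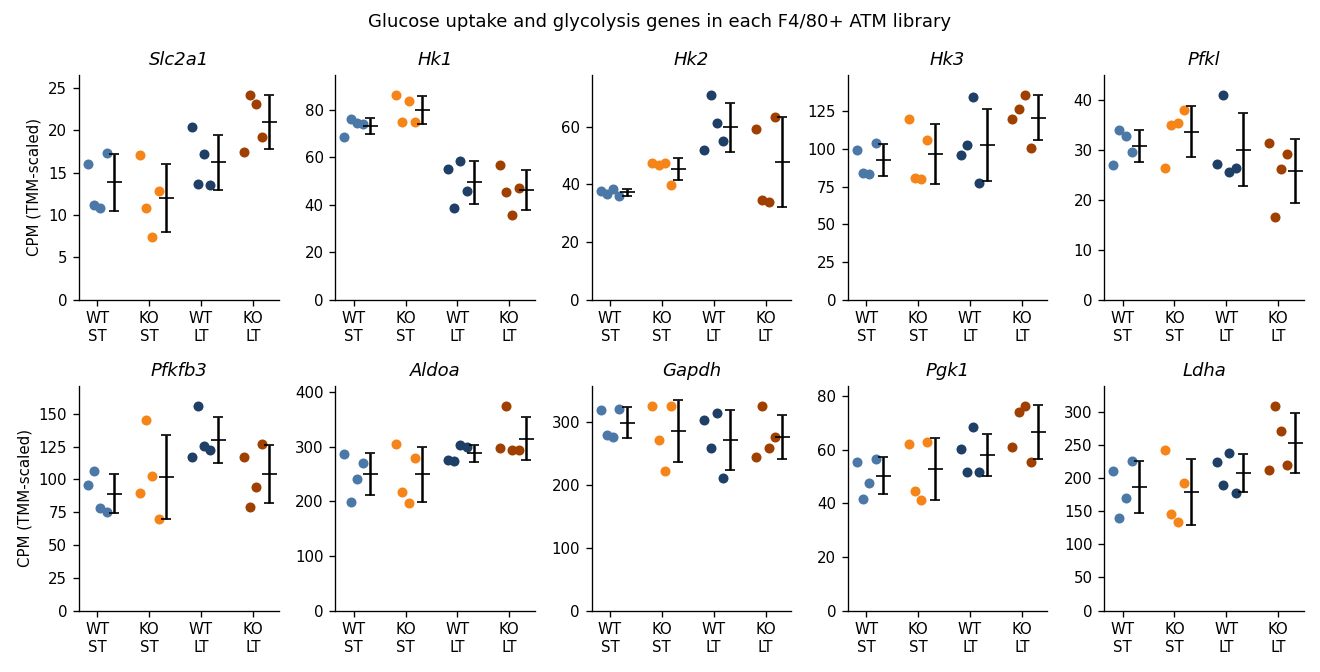
TMM-scaled CPM of each gene (y axis, from 0) in each of the 16 libraries, by group (WT or KO, ST-HFD or LT-HFD). Points are libraries in the order of replicates 1 to 4, and the bars to their right are the mean ± SD (n = 4); Hk1 is lower in all 8 LT-HFD libraries than in any ST-HFD library.

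The question put to each gene was whether its level differed between genotypes at each diet duration, as the study compared them, and between the diet durations within each genotype. All 10 genes passed the filter on low counts in each fit. Between genotypes, none of the 10 was called at an adjusted p under 0.05 by edgeR's quasi-likelihood test on ST-HFD or on LT-HFD. DESeq2's Wald test called none of them either. At an unadjusted p under 0.05 edgeR found 1 of 10 on ST-HFD, Hk2, beside 1.84% of all genes. On LT-HFD it found 0 of 10 at that threshold, beside 5.72% of all genes. Over all genes tested, 0.00913% were called on ST-HFD, and on LT-HFD 0.0182%, so few calls were made between genotypes on any gene. With the replicate number as a block, 2 genes in place of 1 were called on ST-HFD, none of them among the 10. The 4 libraries of each genotype did not overlap for 1 of the 10 genes on ST-HFD, Hk2, beside 1.46% of all genes, and for 0 of 10 on LT-HFD, beside 3.01%. The median log2 fold change of the 10 genes, IRF5-KO against WT, was 0.060 for ST-HFD and 0.072 for LT-HFD, and that of all genes tested was 0.0035 and 0.00042.

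Between diet durations, 3 of the 10 genes were called in WT, Hk2 and Pfkfb3 as higher on LT-HFD and Hk1 as lower, and 2 in IRF5-KO, Slc2a1 as higher and Hk1 as lower. Over all genes tested, 25.3% were called in WT (12.1% higher and 13.2% lower) and 32.8% in IRF5-KO (15.6% higher and 17.2% lower). The counts of 3 and 2 of 10 are near or under those shares. The libraries of the durations did not overlap for these same 3 genes in WT, beside 26.1% of all genes, and for these same 2 in IRF5-KO, beside 29.4%. The median log2 fold change of the 10 genes, LT-HFD against ST-HFD, was 0.18 in WT and 0.20 in IRF5-KO, and that of all genes 0.024 and 0.043. With library totals taken without the 3 top features in place of TMM scaling, chosen after seeing the data, the median of all genes in IRF5-KO moved to 0.15 and the calls from 1801 higher and 1986 lower to 2420 higher and 1572 lower. In WT the median moved to 0.089 and the calls from 1401 higher and 1527 lower to 1713 higher and 1265 lower. Under that scaling 3 of the 10 genes were called in WT, as before, and 5 in IRF5-KO, with Aldoa, Pgk1 and Ldha added as higher.

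Whether the effect of duration differed between genotypes was tested by their interaction, which called none of the 10 genes and 0% of all genes, by DESeq2 as well. At an unadjusted p under 0.05, edgeR's test of the interaction found 454 genes (3.93% of those tested), among them 1 of the 10, Hk2. The genes called in 1 genotype and not in the other are therefore not shown to differ between genotypes. The durations were separate sets of mice, and whether they were also separate processing runs cannot be told apart from duration.

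**Figure D2:**
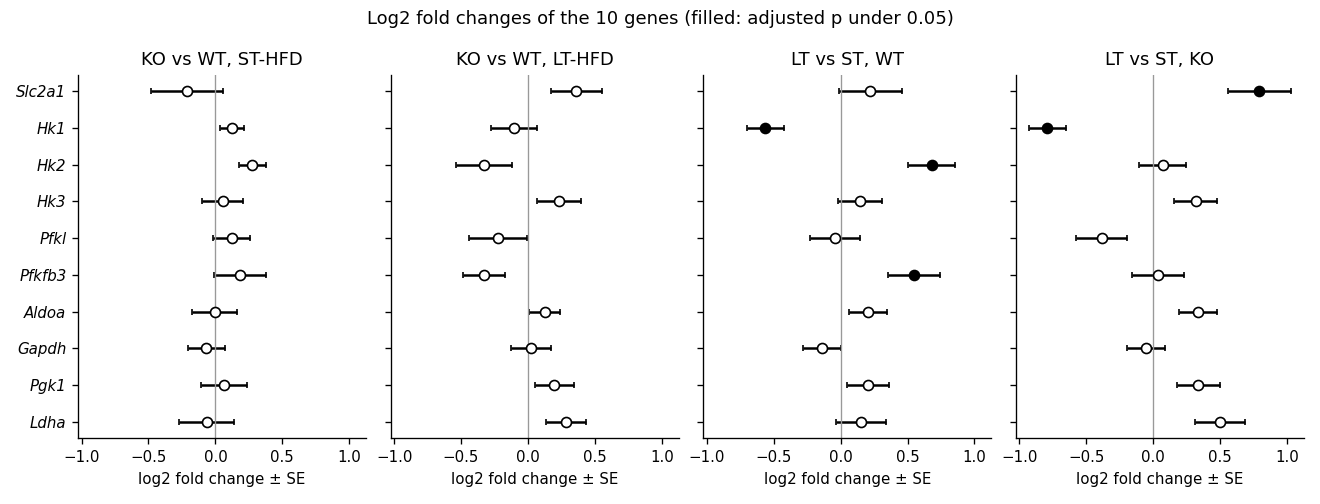
Log2 fold changes (x axis) of the 10 genes in 4 comparisons, with standard errors as bars, and filled points where the adjusted p of edgeR's quasi-likelihood test was under 0.05. The filled points are Hk1, Hk2 and Pfkfb3 in WT and Slc2a1 and Hk1 in IRF5-KO, all between diet durations, and the genotype panels hold none.

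Slc2a1 (ENSMUSG00000028645, chromosome 4 of GRCm38, 119108711 to 119137983, plus strand) encodes GLUT1, the facilitative glucose transporter of most cells. On ST-HFD it was at 16, 11.1, 10.9 and 17.3 CPM in WT replicates 1 to 4 and at 17.04, 10.8, 7.39 and 12.8 CPM in IRF5-KO. On LT-HFD it was at 20.4, 13.6, 17.2 and 13.6 CPM in WT and at 17.4, 24.1, 23.0 and 19.2 CPM in IRF5-KO. In the comparisons of genotypes and of durations the groups overlapped, except for IRF5-KO between durations. There every LT-HFD library was above every ST-HFD library, by a small margin between 17.04 and 17.4 CPM. Slc2a1 rose 1.73-fold on LT-HFD in IRF5-KO (log2 fold change 0.79, SE 0.23, adjusted p = 0.0148 by edgeR's quasi-likelihood test), while the WT log2 fold change was 0.22 (SE 0.23, adjusted p = 0.536). The interaction was 0.57 on the log2 scale (SE 0.33, adjusted p = 0.969 by edgeR's quasi-likelihood test). Without IRF5-KO replicate 3 on ST-HFD, the lowest library, the log2 fold change in IRF5-KO was 0.62 with an adjusted p of 0.0528. The genotype log2 fold changes were −0.21 (SE 0.27) on ST-HFD and 0.36 (SE 0.19) on LT-HFD. With 32 to 92 counts per library, Slc2a1 was the gene of the 10 with the lowest counts, and Gm12868 overlaps its exons on the opposite strand.

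Hk1 (ENSMUSG00000037012, chromosome 10, 62268855 to 62379908, minus strand) encodes the hexokinase that most tissues express and that binds the outer mitochondrial membrane. Its level on ST-HFD was 68.3, 75.9, 74.1 and 74.1 CPM in WT and 86.0, 74.6, 83.6 and 74.8 CPM in IRF5-KO. Its level on LT-HFD was 54.8, 38.4, 58.4 and 45.9 CPM in WT and 56.7, 45.3, 35.7 and 47.0 CPM in IRF5-KO. The highest LT-HFD library, at 58.4 CPM, was below the lowest ST-HFD library, at 68.3 CPM, over both genotypes. Hk1 was the gene of the 10 called in both genotypes: it was 1.48-fold lower on LT-HFD in WT (log2 fold change −0.56, SE 0.14, adjusted p = 0.00579 by edgeR's quasi-likelihood test) and 1.73-fold lower in IRF5-KO (log2 fold change −0.79, SE 0.14, adjusted p = 3.13e-04). Both calls stood in 16 of 16 fits that left out 1 library. The genotype log2 fold changes were 0.12 (SE 0.089) on ST-HFD and −0.11 (SE 0.17) on LT-HFD. Hk1os overlaps its exons on the opposite strand.

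Hk2 (ENSMUSG00000000628, chromosome 6, 82725025 to 82774454, minus strand) encodes the hexokinase that is induced by insulin, hypoxia and growth signals in muscle, fat and tumour cells. The libraries on ST-HFD held 37.7, 36.7, 38.5 and 36.0 CPM in WT and 47.3, 46.6, 47.6 and 39.6 CPM in IRF5-KO. The libraries on LT-HFD held 51.8, 70.9, 61.5 and 54.9 CPM in WT and 59.2, 34.4, 34.0 and 63.3 CPM in IRF5-KO. The WT libraries on ST-HFD were the closest together of the 4 groups and lay below every other library but a pair, IRF5-KO replicates 2 and 3 on LT-HFD, and the IRF5-KO libraries on LT-HFD split into that pair and another at 59.2 and 63.3 CPM. Hk2 was 1.60-fold higher on LT-HFD in WT (log2 fold change 0.68, SE 0.18, adjusted p = 0.00814 by edgeR's quasi-likelihood test), a call that stood in 16 of 16 fits that left out 1 library. In IRF5-KO the log2 fold change was 0.073 (SE 0.18, adjusted p = 0.783). On ST-HFD every IRF5-KO library was above every WT library, at a log2 fold change of 0.28 (SE 0.10, unadjusted p = 0.0181, adjusted p = 1.0 by edgeR's quasi-likelihood test), and on LT-HFD it was −0.33 (SE 0.21, adjusted p = 0.885). The interaction was −0.61 (SE 0.25, unadjusted p = 0.0247, adjusted p = 0.969 by edgeR's quasi-likelihood test), so the difference did not pass the adjustment over all genes.

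Hk3 (ENSMUSG00000025877, chromosome 13, 55005985 to 55021385, minus strand) encodes the hexokinase found mainly in myeloid cells. On ST-HFD it was at 99.1, 84.3, 83.2 and 104 CPM in WT and at 120.1, 81.0, 79.9 and 106 CPM in IRF5-KO. On LT-HFD it was at 96.1, 102, 134 and 77.5 CPM in WT and at 119.99, 126, 136 and 100.4 CPM in IRF5-KO. All 4 groups overlapped, and the log2 fold change with duration was 0.14 (SE 0.16, adjusted p = 0.571 by edgeR's quasi-likelihood test) in WT and 0.32 (SE 0.16, adjusted p = 0.148) in IRF5-KO. Unc5a overlaps its exons on the opposite strand.

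Per kb of exon, Hk3 made up most of the sum of these 3 hexokinase genes in every library. Its share was 55.0% to 65.8% on ST-HFD, and in the LT-HFD libraries 59.1% to 78.9%. Such shares depend on the lengths of annotated exon, 8.53 kb for Hk1, 5.97 kb for Hk2 and 3.68 kb for Hk3. The lengths of the transcripts expressed were not measured. The share of Hk1 was 21.5% ± 2.02 in WT and 21.8% ± 2.40 in IRF5-KO on ST-HFD (SD, n = 4), and 13.4% ± 2.48 and 11.7% ± 1.99 on LT-HFD, with no overlap between durations in either genotype. The share of Hk2 was 15.6% ± 1.30 and 17.8% ± 2.82 on ST-HFD, and 23.2% ± 3.70 and 17.4% ± 5.96 on LT-HFD. Hk1 was above Hk2 per kb in all 8 ST-HFD libraries, at a ratio of 1.12 to 1.45, and below it in all 8 LT-HFD libraries, at a ratio of 0.379 to 0.920. The mean ratio was 1.38 ± 0.0846 in WT and 1.24 ± 0.0852 in IRF5-KO on ST-HFD, and 0.592 ± 0.156 and 0.711 ± 0.166 on LT-HFD. This ratio was chosen after the values were seen and carries no test, and it does not depend on the scaling of the libraries. Which of these genes was higher per kb depends on the exon lengths, while the fall of the ratio between durations does not. In WT both genes moved, in opposite directions, and in IRF5-KO the call was on Hk1.

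**Figure D3:**
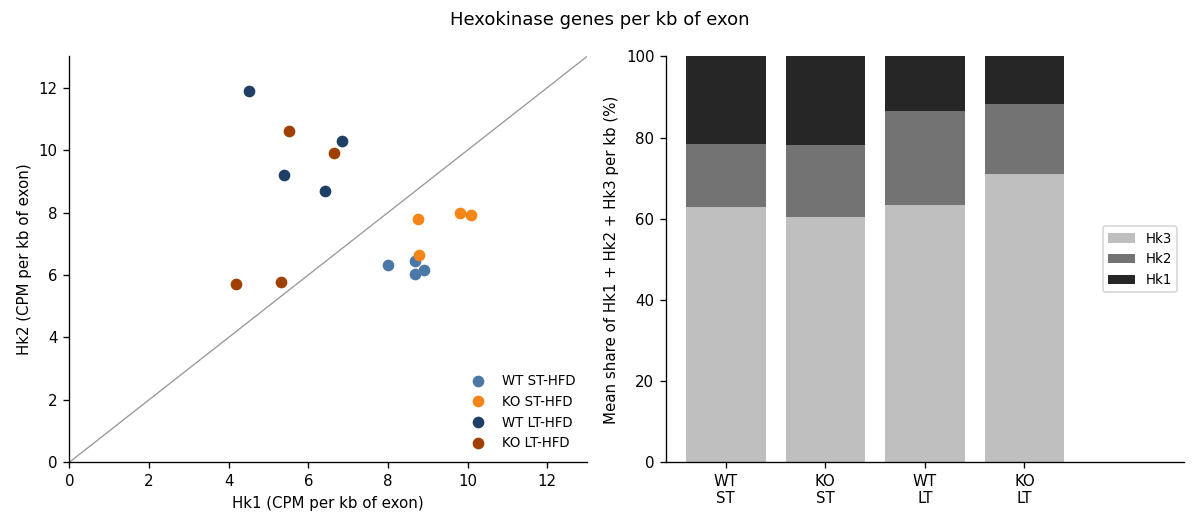
Left, Hk2 against Hk1 (CPM per kb of exon) in the 16 libraries. Points below the line, as the 8 ST-HFD libraries are, have more Hk1 than Hk2 per kb, which depends on the exon lengths. Right, mean share of each gene in the sum of Hk1, Hk2 and Hk3 per kb (%), by group (n = 4), with Hk1 at 21.5% and 21.8% on ST-HFD and at 13.4% and 11.7% on LT-HFD.

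Pfkl (ENSMUSG00000020277, chromosome 10, 77986947 to 78010083, minus strand) encodes the liver-type subunit of phosphofructokinase, which commits glucose to glycolysis. Its level on ST-HFD was 26.9, 33.9, 32.6 and 29.6 CPM in WT and 26.3, 35.0, 35.3 and 37.9 CPM in IRF5-KO. Its level on LT-HFD was 27.1, 40.9, 25.6 and 26.4 CPM in WT and 31.2, 16.5, 26.1 and 29.0 CPM in IRF5-KO. The groups overlapped throughout. The highest library, WT replicate 2 on LT-HFD, stood apart from the other WT libraries at 25.6 to 27.1 CPM, and the lowest was IRF5-KO replicate 2 on LT-HFD. The log2 fold change with duration was −0.042 (SE 0.19, adjusted p = 0.899 by edgeR's quasi-likelihood test) in WT and −0.38 (SE 0.19, adjusted p = 0.132) in IRF5-KO. In WT the sign of this value turned under scaling without the top 3 features, to 0.022.

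Pfkfb3 (ENSMUSG00000026773, chromosome 2, 11471433 to 11554077, minus strand) encodes the kinase that makes fructose 2,6-bisphosphate, an activator of phosphofructokinase, and is induced in inflammatory macrophages. The libraries on ST-HFD held 95.8, 106, 78.4 and 74.8 CPM in WT and 89.2, 145, 102 and 69.4 CPM in IRF5-KO. The libraries on LT-HFD held 117, 156, 125 and 122 CPM in WT and 117, 78.6, 94.1 and 127 CPM in IRF5-KO. In WT every LT-HFD library was above every ST-HFD library, while the IRF5-KO libraries of both durations overlapped. Pfkfb3 was 1.46-fold higher on LT-HFD in WT (log2 fold change 0.55, SE 0.20, adjusted p = 0.0487 by edgeR's quasi-likelihood test), just inside the threshold, and in IRF5-KO the log2 fold change was 0.035 (SE 0.20, adjusted p = 0.909). The WT call was lost in 10 of 16 fits that left out 1 library, where its adjusted p ran up to 0.139, reached without WT replicate 2 on LT-HFD (log2 fold change 0.45). Those 10 libraries were WT replicates 1, 3 and 4 and IRF5-KO replicate 3 on ST-HFD, and WT replicates 1 to 4 and IRF5-KO replicates 1 and 3 on LT-HFD. The interaction was −0.51 (SE 0.28, adjusted p = 0.969 by edgeR's quasi-likelihood test), and the genotype log2 fold changes were 0.18 (SE 0.20) on ST-HFD and −0.33 (SE 0.16) on LT-HFD.

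Aldoa (ENSMUSG00000030695, chromosome 7, 126795234 to 126800751, minus strand) encodes aldolase A, which splits fructose 1,6-bisphosphate. On ST-HFD it was at 287, 199, 241 and 270.5 CPM in WT and at 304, 218, 196 and 279 CPM in IRF5-KO. On LT-HFD it was at 275, 274, 303 and 299 CPM in WT and at 297, 374, 294 and 293 CPM in IRF5-KO. The LT-HFD libraries lay in the upper part of the ST-HFD range or above it, with the highest value in IRF5-KO replicate 2. The log2 fold change with duration was 0.21 (SE 0.14, adjusted p = 0.317 by edgeR's quasi-likelihood test) in WT and 0.34 (SE 0.14, adjusted p = 0.0778) in IRF5-KO. Without IRF5-KO replicate 1 on ST-HFD, the IRF5-KO value was 0.45 with an adjusted p of 0.0286. Fam57b overlaps its exons on the opposite strand.

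Gapdh (ENSMUSG00000057666, chromosome 6, 125161715 to 125166467, minus strand) encodes the enzyme that oxidises glyceraldehyde 3-phosphate, and is often used as a reference gene. Its level on ST-HFD was 319, 280.0, 276 and 321 CPM in WT and 325, 271, 222 and 325 CPM in IRF5-KO. Its level on LT-HFD was 303, 258, 315 and 211 CPM in WT and 244, 325, 258 and 277 CPM in IRF5-KO. The 4 groups covered nearly one range, and the coefficient of variation over the 16 libraries, 13.4%, was the smallest among the 10 genes. The log2 fold change with duration was −0.14 (SE 0.14, adjusted p = 0.522 by edgeR's quasi-likelihood test) in WT and −0.051 (SE 0.14, adjusted p = 0.816) in IRF5-KO, where the sign turned to 0.050 under scaling without the top 3 features. The annotation holds 78 near-identical copies of parts of its transcripts (identity of at least 95% over at least 200 bases). The 40 of them in the count table took 149 counts, or 0.816% of the counts of Gapdh, and Iffo1 overlaps its exons on the opposite strand.

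Pgk1 (ENSMUSG00000062070, chromosome X, 106187100 to 106203699, plus strand) encodes phosphoglycerate kinase, the first step of glycolysis that makes ATP. The libraries on ST-HFD held 55.4, 41.8, 47.6 and 56.7 CPM in WT and 62.4, 44.8, 41.4 and 63.0 CPM in IRF5-KO. The libraries on LT-HFD held 60.5, 51.7, 68.4 and 51.9 CPM in WT and 61.1, 74.3, 76.4 and 55.6 CPM in IRF5-KO. The groups overlapped, and both of the highest libraries, at 74.3 and 76.4 CPM, were IRF5-KO on LT-HFD. The log2 fold change with duration was 0.21 (SE 0.16, adjusted p = 0.383 by edgeR's quasi-likelihood test) in WT and 0.34 (SE 0.16, adjusted p = 0.113) in IRF5-KO. Of its 4 near-identical copies in the annotation, the 2 in the count table took 0.055% of its counts.

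Ldha (ENSMUSG00000063229, chromosome 7, 46841475 to 46855627, plus strand) encodes the muscle-type subunit of lactate dehydrogenase, which turns pyruvate into lactate and regenerates NAD+. On ST-HFD it was at 210.0, 140.2, 169 and 226 CPM in WT and at 242, 146, 134 and 193 CPM in IRF5-KO. On LT-HFD it was at 224, 190.1, 238 and 177 CPM in WT and at 212, 309, 271 and 219.6 CPM in IRF5-KO. The ST-HFD libraries of each genotype spread widely, and the ranges of the durations overlapped in both. The log2 fold change with duration was 0.15 (SE 0.19, adjusted p = 0.604 by edgeR's quasi-likelihood test) in WT and 0.50 (SE 0.19, adjusted p = 0.0501) in IRF5-KO, just outside the threshold. The IRF5-KO value passed in 5 of 16 fits that left out 1 library, with an adjusted p down to 0.0100 without IRF5-KO replicate 1 on ST-HFD, and it passed with no filter on low counts (adjusted p = 0.0429). Between genotypes the log2 fold change was −0.066 (SE 0.21) on ST-HFD and 0.28 (SE 0.15, adjusted p = 0.853) on LT-HFD. Of its 4 near-identical copies in the annotation, the 1 in the count table took 0.038% of its counts.

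The 10 genes did not vary as 1 block between libraries. Over the 16 libraries, Pearson's r of log2 CPM (with a pseudocount of 0.5) was between 0.71 and 0.94 for each of the 10 pairs among Slc2a1, Hk3, Aldoa, Pgk1 and Ldha, and between 0.61 and 0.93 after each group's mean was subtracted. The closest pairs were Pgk1 with Ldha (r = 0.94) and Slc2a1 with Ldha (r = 0.94), so these genes were high in the same libraries within a group as well as between groups. Gapdh followed the same 5 genes at r of 0.36 to 0.51, and at 0.67 to 0.83 with the group means subtracted.

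Hk2 and Pfkfb3, the genes that rose with duration in WT, varied with each other (r = 0.78, and 0.64 with the group means subtracted). With the means subtracted, Pfkfb3 ran against Pgk1 (r = −0.72) and Ldha (r = −0.64). Pfkl ran against Slc2a1, Hk3, Aldoa, Pgk1 and Ldha, at r of −0.74 to −0.48, and of −0.64 to −0.31 with the means subtracted. Hk1 ran against the same 5 at −0.59 to −0.37, which fell to between −0.0073 and 0.094 once the group means were subtracted, so that relation lay between groups and not within them. These are descriptions over 16 libraries that share depth, scaling and group, with no test.

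**Figure D4:**
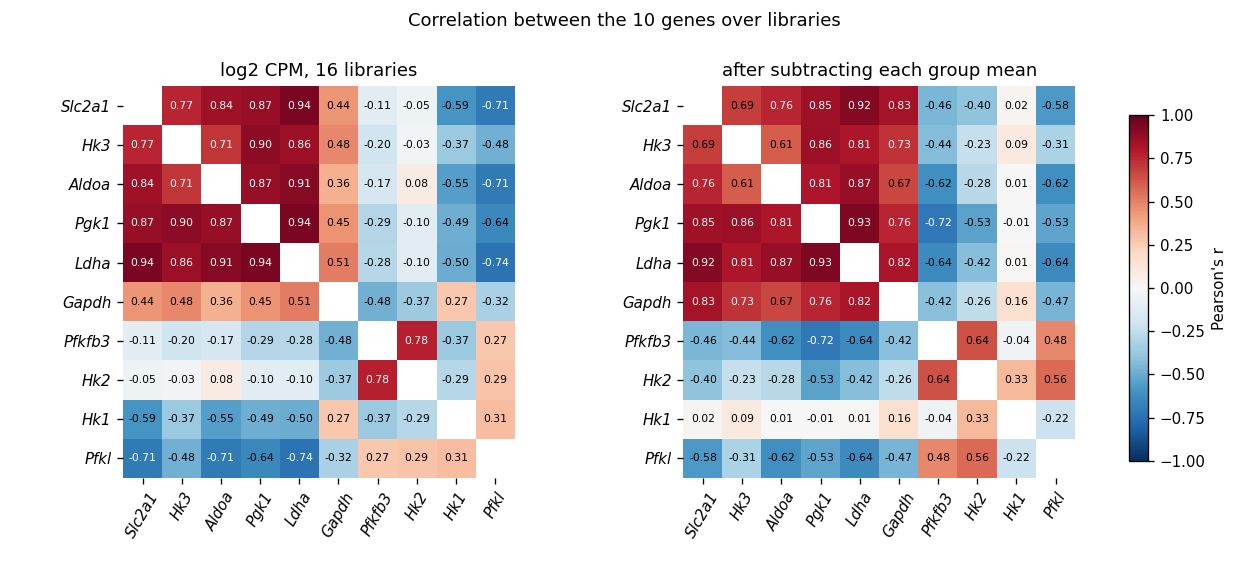
Pearson's r between the 10 genes over 16 libraries, for log2 CPM (left) and after each group's mean was subtracted (right), on a colour scale from −1 to 1. Slc2a1, Hk3, Aldoa, Pgk1 and Ldha form a block of high r (0.71 to 0.94 on the left), Hk2 and Pfkfb3 pair at 0.78, and Pfkl is negative against the block.

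The genes that varied most like each of the 10 were found among 5967 other genes, the rest of the 10 included, with a mean of at least 20 CPM (5968 for Slc2a1, whose own mean is below that). Ldha was most like Lipa, the lysosomal acid lipase (r = 0.98), and Nceh1, a cholesteryl ester hydrolase (r = 0.97), and 1.42% of the genes compared reached an r over 0.9 with it. Pgk1 was most like Adgre1, which encodes F4/80 itself and is listed under its older symbol Emr1 (r = 0.95), and then Ldha. Adgre1 was at 617 ± 69.7 CPM in WT and 609 ± 107 CPM in IRF5-KO on ST-HFD, and at 710 ± 98.1 and 840 ± 142 CPM on LT-HFD, where it rose in IRF5-KO (log2 fold change 0.46, SE 0.15, adjusted p = 0.0235 by edgeR's quasi-likelihood test). It was 1 of 2 macrophage markers called as higher there, beside 5 called as lower. The antigen used for the selection of the cells therefore moved with the same libraries as Pgk1, and its part in the level of Pgk1 was not tested.

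Slc2a1 was most like Ldha (r = 0.94) and Tubb2c (r = 0.93), a tubulin gene, and Aldoa was most like Creg1 (r = 0.97) and Vat1 (r = 0.95). Hk3 was most like Scarb1, the HDL receptor (r = 0.94), and Ifngr2, a subunit of the interferon gamma receptor (r = 0.91). Among the genes that varied like Gapdh was Cotl1 (r = 0.93). Pfkfb3 was most like Cd40, the costimulatory receptor (r = 0.91), and Ier5 (r = 0.88), an immediate early gene, and these values hardly moved with the group means subtracted (0.91 and 0.86). Hk2 was most like Fkbp1a (r = 0.85) and then Pfkfb3, and none of the genes compared reached an r over 0.9 with it. Hk1 was most like Ctnna1, alpha-catenin (r = 0.95), and Thrap3 (r = 0.94), values that fell to 0.79 and 0.75 with the means subtracted, and Pfkl was most like Cep68 (r = 0.91) and Pepd (r = 0.89).

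The other genes of glucose use were followed in 9 lists by role. In neither genotype comparison and not in the interaction was any of their genes called by edgeR's test. Between diet durations 14 of the 79 genes tested were called as higher and 1 as lower in WT, and 17 as higher and 3 as lower in IRF5-KO. These are 19.0% and 25.3% of the genes tested, beside the 25.3% in WT and 32.8% in IRF5-KO of all genes. By direction, 12.1% of all genes were called as higher and 13.2% as lower in WT, and 15.6% and 17.2% in IRF5-KO.

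Of 12 other glycolytic enzymes tested, 2 rose with duration in each genotype, both at low levels. Ldhb, the heart-type subunit of lactate dehydrogenase, went from 1.64 ± 0.575 to 8.18 ± 4.16 CPM in WT (log2 fold change 2.33, SE 0.43) and from 3.13 ± 1.55 to 8.71 ± 2.54 CPM in IRF5-KO (log2 fold change 1.45, SE 0.40). Eno2, the enolase of neurons, went from 2.84 ± 1.80 to 6.80 ± 1.06 CPM in WT (log2 fold change 1.22, SE 0.41) and from 2.91 ± 1.47 to 9.07 ± 2.03 CPM in IRF5-KO (log2 fold change 1.61, SE 0.41). The other 10 enzymes were not called in either genotype. Of 4 other glucose transporters, Slc2a8, an intracellular transporter, rose in both genotypes (log2 fold changes 0.66, SE 0.20, and 0.57, SE 0.21). Of 3 other genes that set fructose 2,6-bisphosphate, Pfkfb4 rose in IRF5-KO (0.41, SE 0.15). Of 5 genes of lactate transport, Emb, a partner of the lactate carriers, fell in IRF5-KO (−0.47, SE 0.16).

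Among 13 genes of pyruvate entry into mitochondria, 3 rose in WT and 4 in IRF5-KO. Mpc1 and Mpc2, the subunits of the mitochondrial pyruvate carrier, and Pdp1, the phosphatase that activates pyruvate dehydrogenase, rose in both genotypes, and Pdha1, a subunit of that enzyme, rose in IRF5-KO (log2 fold change 0.35, SE 0.11). The log2 fold changes were 0.60 (SE 0.17) and 0.61 (SE 0.17) for Mpc1, 0.58 (SE 0.16) and 0.73 (SE 0.16) for Mpc2, and 0.93 (SE 0.18) and 0.70 (SE 0.18) for Pdp1, in WT and IRF5-KO. Of 8 genes of the pentose phosphate pathway, H6pd, which acts in the endoplasmic reticulum, rose from 74.2 ± 7.22 to 167 ± 63.5 CPM in WT (log2 fold change 1.17, SE 0.19) and from 75.1 ± 8.01 to 175 ± 27.7 CPM in IRF5-KO (1.22, SE 0.19). Of 10 genes of gluconeogenesis and glycogen, Pygl, the liver glycogen phosphorylase, and Pgm2 rose in both genotypes, and Pgm1 and Pck2 rose in IRF5-KO, with log2 fold changes of 0.39 to 0.56.

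Among 11 regulators of glycolytic genes, Mtor, the kinase of the growth pathway, fell in both genotypes, from 64.9 ± 8.17 to 41.6 ± 3.75 CPM in WT (log2 fold change −0.64, SE 0.13) and from 66.3 ± 9.09 to 37.6 ± 5.18 CPM in IRF5-KO (−0.82, SE 0.13). Txnip, an inhibitor of glucose uptake, rose in WT (0.73, SE 0.25), and Mlxip, a glucose-responsive transcription factor, fell in IRF5-KO (−0.66, SE 0.16). Among 13 other genes of the hypoxia response, Adm, the vasodilator peptide adrenomedullin, rose from 4.17 ± 1.66 to 50.1 ± 40.4 CPM in WT (log2 fold change 3.61, SE 0.55) and from 4.76 ± 2.01 to 45.2 ± 30.2 CPM in IRF5-KO (3.24, SE 0.54), with a wide spread on LT-HFD. P4ha2, a collagen prolyl hydroxylase, rose in both genotypes (2.49, SE 0.42, and 1.26, SE 0.39), as did Ndrg1 (1.01, SE 0.33, and 1.05, SE 0.32). Bnip3, which acts in the removal of mitochondria, rose in WT (0.59, SE 0.20), and Vhl, which targets hypoxia-inducible factors for degradation, in IRF5-KO (0.75, SE 0.19). The median of the 13 was 0.24 in WT and 0.079 in IRF5-KO. Ldhb, Adm and P4ha2 rose along with the fibroblast and preadipocyte markers given above, whose part in these changes was not tested.

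**Figure D5:**
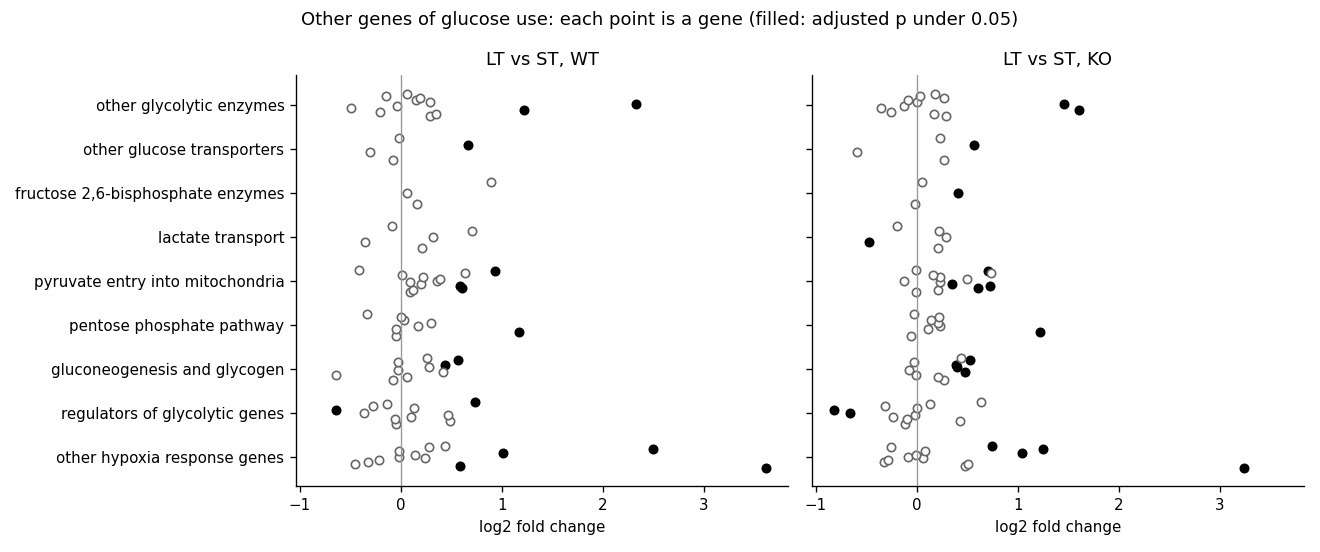
Log2 fold changes between diet durations (x axis, LT-HFD against ST-HFD) of the tested genes of 9 lists in WT (left) and IRF5-KO (right), 1 point a gene, filled where the adjusted p of edgeR's quasi-likelihood test was under 0.05. Most points lie near 0, and the farthest is Adm at 3.61 in WT and 3.24 in IRF5-KO.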

How the data were processed

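Libraries of total RNA from F4/80+ ATMs were prepared with a stranded kit, ribosomal cDNA was depleted, and paired reads were sequenced. The authors aligned the reads to mm10 and generated raw counts per gene with STAR 2.7.3a, and the submitters' processing notes also name fastp 0.19.11. The deposited values are counts, whole numbers without normalization, for 37310 identifiers. Coordinates and exon lengths came from GENCODE M21 (GRCm38), which holds 32620 of these identifiers. The annotation release and strand setting of the counting are not given in the sources used here, so reads of a gene and of an antisense partner cannot be told apart. Totals were 3279332 to 4958131 counts per library. Pairs of libraries within a group differed by more than sampling noise.

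Counts were filtered with filterByExpr, scaled by TMM and tested with edgeR 4.0.16 (R 4.3.3) by the quasi-likelihood test, two-sided, with Benjamini-Hochberg adjustment over all genes tested and calls at an adjusted p under 0.05. Genotypes were compared within a duration over 8 libraries (10958 genes for ST-HFD and 10987 for LT-HFD). Diet durations and the interaction were fitted over 16 libraries (11560 genes). The method was tested on simulated data. CPM share 1 TMM scale over 16 libraries. Genes named are the 10 members, called genes of 9 pathway lists (at most 6 for a list and comparison), the 2 genes most like each member, Irf5 and Lyz2, and markers of 10 cell types or states. Some genes under these rules are not reported here. The members and lists were chosen with earlier results of these data known. Motif and copy searches used RefSeq promoters and GENCODE transcripts.

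Same-numbered ST-HFD libraries of the genotypes deviated together from their group means (correlations of 0.179 to 0.483 over 9765 genes), and so met the criterion for pairs (every correlation over 0.1). The genotype values printed come from the fit without a block, and the fit with the replicate number as a block was an alternative. With other numbers the correlations ran from −0.509 to 0.467. The numbers did not pair the other groups. Alternatives were DESeq2 1.42.0, RLE size factors, no filter, other sets of libraries in the fit, the replicate block, totals without the 3 top features, and each library left out in turn.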

Additional observations from a re-analysis of the deposited data

Results flagged for a closer look

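In 3 of the 40 sets of 4 libraries (10 genes in 4 groups), 1 library stood far from the other 3 by Dixon's test, which chance gives in about 1 of 20 sets. Hk2 was at 39.6 CPM in IRF5-KO replicate 4 on ST-HFD, below the other 3 at 46.6 to 47.6 CPM. Pfkl was at 40.9 CPM in WT replicate 2 on LT-HFD, above the other 3 at 25.6 to 27.1 CPM, and this library also had the highest share of counts in the 3 top features (34.5%). Aldoa was at 374 CPM in IRF5-KO replicate 2 on LT-HFD, above the other 3 at 293 to 297 CPM, and Ldha (309 CPM) and Slc2a1 (24.1 CPM) were also highest there, while Pfkl (16.5 CPM) was lowest. What sets these libraries apart was not tested.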

How the results depend on the processing

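Genes called between genotypes went from 1 to 2 on ST-HFD without the filter, with DESeq2, over 16 libraries or with the replicate block as pairs, and from 2 to 6 on LT-HFD without the filter or with DESeq2, and to 0 with the replicate block or totals without the 3 top features. None was one of the 10 genes. Between durations in IRF5-KO, where the numbers did not pair the libraries, the replicate block took the calls from 3787 to 2349 genes and from 2 to 1 of the 10 (Slc2a1 at an adjusted p of 0.0670), and totals without the top features called 5 of the 10. The block changed no other call on the 10 genes. With each library left out in turn, genes called between genotypes stayed at 1 on ST-HFD and numbered 0 to 2 on LT-HFD, those called between durations 2139 to 3030 in WT and 3028 to 3890 in IRF5-KO, and the 10 genes called 2 to 3 in WT and 1 to 4 in IRF5-KO. Hk1 kept its call and direction under every alternative in both genotypes, and Hk2 in WT. Totals without the top features turned the log2 fold change with duration of Pfkl in WT to 0.022 and of Gapdh in IRF5-KO to 0.050.

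Values near 0 also turned sign when a library was left out. On ST-HFD the log2 fold change between genotypes ran from −0.072 to 0.14 for Hk3, −0.035 to 0.32 for Pfkfb3, −0.12 to 0.10 for Aldoa, −0.14 to 0.041 for Gapdh, −0.035 to 0.17 for Pgk1 and −0.26 to 0.057 for Ldha. On LT-HFD it ran from −0.21 to 0.0060 for Hk1 and −0.087 to 0.11 for Gapdh. With duration it ran in WT from −0.016 to 0.26 for Hk3 and −0.22 to 0.024 for Pfkl, and in IRF5-KO from −0.091 to 0.20 for Hk2, −0.11 to 0.25 for Pfkfb3 and −0.16 to 0.016 for Gapdh. The interaction of Gapdh ran from −0.016 to 0.17. None of these was called. Depth limits Slc2a1 most, at 32 to 92 counts per library.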
